A study of Mus musculus with 4 samples.

Results

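The 9 genes described here encode proteins of the neuronal cytoskeleton and the growth cone: the microtubule-associated proteins Map2, Mapt and Map1b, the neurofilament subunits Nefl, Nefm and Nefh, the tubulin Tubb3, and the growth-associated proteins Stmn2 and Gap43. They were taken by symbol, with every probe set that the array's annotation assigns to exactly 1 gene symbol. This gave 14 probe sets out of 12422 on the array besides controls. All 9 genes were found: Mapt and Stmn2 with 3 probe sets each, Tubb3 with 2 and the others with 1. Total RNA from 4 samples of mouse hippocampus was hybridised to Affymetrix Murine Genome arrays, with 1 array per sample. The labels name the tissue and give no strain, genotype, sex, age or treatment, so that the 4 samples form 1 group and there is no condition to compare. The series title calls them replicates, but nothing says that they came from separate animals. The p-values below therefore measure only the spread between these samples, which may be technical. Samples are called 1 to 4, which are names without an order.

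The axon and dendrites of a neuron are built on microtubules, which are polymers of alpha- and beta-tubulin, and in thick axons also on neurofilaments, which are polymers of light, medium and heavy subunits. Microtubule-associated proteins bind along the microtubule and are sorted within the cell, with Map2 in dendrites and the cell body and tau, the product of Mapt, mainly in axons. The growth cone at the tip of a growing axon is rich in Gap43 and in Stmn2, and in the adult hippocampus Gap43 is known to remain high in principal cells whose axons stay plastic.

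Signals are quantile normalized array units. The floor, below which values have no order, was 27.7 units, and a log2 value is taken after that floor. Probe sets with a mean log2 signal above the median of all probe sets were tested, 6211 in all, among them 12 of the 14 probe sets and 8 of the 9 genes. Map1b and 1 probe set of Stmn2 fell below this limit and are given as values only. With so few arrays every value has limited precision, and levels are compared only between samples of 1 probe set, since probe sets differ in how strongly they hybridise. In bulk tissue, fewer cells of a type and less RNA per cell cannot be told apart.

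Sample 4 stood apart from the others. Over the tested probe sets, Pearson's r between samples ranged from 0.912 (samples 1 and 4) to 0.953 (samples 1 and 3); these are correlations over probe sets and not over replicates. Control transcripts are probed near both ends, and a high ratio of the 3' to the 5' signal marks RNA or cDNA that lacks 5' sequence. Among the 4 controls with 5' signals above the floor in every sample, all 4 had their highest ratio in sample 4. For Actb it was 2.03 there and 1.51 to 1.84 in the others, and for Gapdh 1.15 and 0.864 to 0.981. Of 12 measured markers of hippocampal neurons, 11 passed the signal limit, as did 6211 of all 12422 probe sets. All 14 general neuronal genes measured also passed, so this count does not tell hippocampus from other brain tissue. The proneural factor gene Neurod2, which marks glutamatergic neurons, gave 622 to 909 units, while Camk2a was close to the floor in sample 4, at 29.4 units, and between 321 and 629.7 units in the others.

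**Figure D1:**
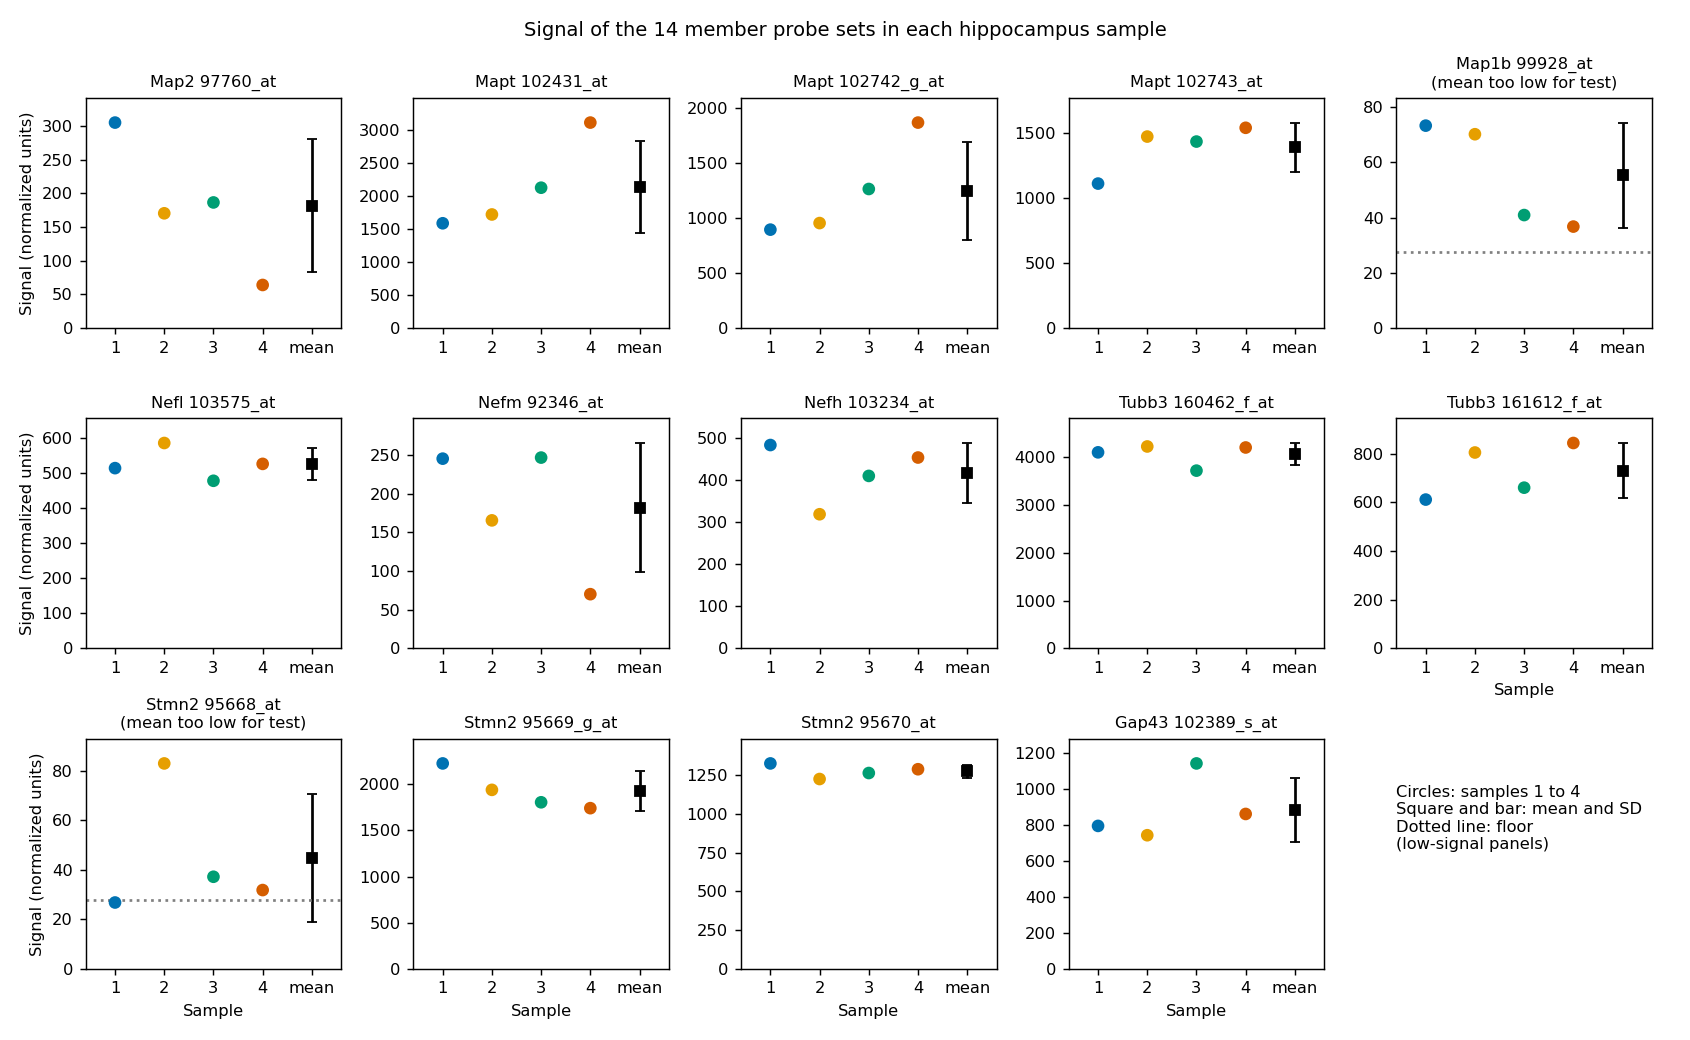
Signal of each of the 14 probe sets (normalized units, linear axis from 0) in samples 1 to 4, with the mean and SD over the 4 samples at the right of each panel. Map2 and Nefm are lowest in sample 4, at 63.9 and 70.05 units, while 2 Mapt probe sets are highest there, at 3118 and 1864 units, and Stmn2 95670_at stays between 1226 and 1327 units.

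Map2, the dendritic microtubule-associated protein, had the widest range of all tested probe sets of the 9 genes. It gave 305 units in sample 1, 171 in sample 2, 187 in sample 3 and 63.9 in sample 4, with a mean of 182 ± 98.9 units (SD, n = 4). Sample 1 was high, sample 4 was low, and samples 2 and 3 lay close together between them. The span from sample 4 to sample 1 was 4.78-fold, a range larger than or equal to that of 98.9% of tested probe sets. The value in sample 4 is low enough that, without detection calls, it cannot be told from background, and with log2(value + 16) in place of the floor the range was 2.01 log2 units instead of 2.26. Its SD on the log2 scale was 2.94 times that of the intensity trend. The variance did not pass the test over all probe sets (limma, one-sided F test against the intensity trend, adjusted p = 0.674). Without sample 4 the span was 1.79-fold. Control ratios of 3' to 5' signal were highest in sample 4, and their part in the Map2 value was not tested.

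Map1b, the microtubule-associated protein of growing axons, had a low signal on this array. It gave 73.3, 70.2, 40.9 and 36.7 units in samples 1 to 4 (55.3 ± 19.1 units, SD, n = 4). Samples 1 and 2 were high and samples 3 and 4 low, all above the floor of 27.7 units. The span of 1.996-fold lies near the floor and was not tested. Like Map2 it was lowest in sample 4. Samples 1 and 2 cannot be ordered, since sample 2 was the higher of them in the deposited values, at 75.9 against 73.5 units.

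Tau was highest in the sample where Map2 was lowest. Mapt 102431_at gave 1589, 1723, 2129 and 3118 units in samples 1 to 4 (2140.0 ± 692 units, SD, n = 4), and Mapt 102742_g_at gave 892, 952, 1261 and 1864 units (1242 ± 445 units, SD, n = 4). In both, sample 4 was highest and sample 1 lowest. The annotation names the same source mRNA for both, so that they share sequence and are not independent measures. Their spans were 1.96-fold and 2.09-fold, with SDs of 2.60 and 2.58 times the trend, and neither passed the test (limma, adjusted p = 0.759 and adjusted p = 0.761). Without sample 4 the spans fell to 1.34-fold and 1.41-fold.

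The third tau probe set, Mapt 102743_at, was designed from another tau mRNA sequence. It gave 1109.6, 1471, 1433 and 1538 units (1388 ± 191 units, SD, n = 4). It shared the lowest and the highest sample with the other two, but here sample 1 lay below 3 samples that differed little among themselves. Its span was 1.39-fold and its SD 1.17 times the trend (limma, adjusted p = 0.994). The high signal of tau in sample 4 was thus smaller in this probe set, with a log2 deviation from the mean of the other 3 samples of 0.21, against 0.79 in Mapt 102431_at and 0.87 in Mapt 102742_g_at. In the same sample the deviation was -1.74 for Map2. These signs were the same when the deposited values were used without further normalization and when arrays were scaled to 1 median.

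For orientation, the sequence before the annotated start is shown for Map2, Map1b and Tubb3, which were not chosen by their signals. These are the genes among the 9 with an entry in the RefSeq promoter table of mouse build GRCm38.p6, 3 of 9. The windows are Map2 at chr1:66175079-66175201 on the plus strand, Map1b at chr13:99516603-99516852 on the minus strand and Tubb3 at chr8:123411303-123411552 on the plus strand, all 5' of the annotated gene. Capitals mark matches to GGGCGG, the core of the GC box, and to TATAA, each searched on both strands.
Map2: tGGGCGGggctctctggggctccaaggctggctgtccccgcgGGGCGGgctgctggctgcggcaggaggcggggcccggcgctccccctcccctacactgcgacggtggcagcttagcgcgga
Map1b: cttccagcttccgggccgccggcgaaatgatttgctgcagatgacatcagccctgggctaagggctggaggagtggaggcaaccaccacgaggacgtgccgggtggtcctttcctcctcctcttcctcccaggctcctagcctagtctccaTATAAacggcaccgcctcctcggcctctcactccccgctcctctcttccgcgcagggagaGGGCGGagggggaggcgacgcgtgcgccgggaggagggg
Tubb3: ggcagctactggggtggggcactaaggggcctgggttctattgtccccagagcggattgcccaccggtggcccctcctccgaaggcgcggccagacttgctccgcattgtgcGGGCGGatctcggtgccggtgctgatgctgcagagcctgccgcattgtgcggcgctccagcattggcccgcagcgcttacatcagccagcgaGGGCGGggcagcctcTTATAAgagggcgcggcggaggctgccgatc
The Map2 stretch is 123 bases long, because another Map2 transcript starts within the 250-base window. Over the whole window Map2 held 5 GGGCGG matches and 0 TATAA matches, and was 81.2% G and C. Map1b held 1 of each in 250 bases and was 66.4% G and C. Tubb3 held 2 GGGCGG matches, and its TATAA matches on the 2 strands overlap in a single TTATAA. Of 32851 windows of 250 bases in the table, 32.7% held GGGCGG and 22.8% held TATAA. A match describes the letters and is not a measured binding site.

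The neurofilament subunits differed in their lowest sample, although none passed the variance test. Nefm, the medium subunit, gave 245, 165, 247 and 70.05 units in samples 1 to 4 (182 ± 83.6 units, SD, n = 4). Samples 1 and 3 were nearly equal, sample 2 was lower and sample 4 lowest. The span was 3.52-fold and the SD 2.70 times the trend, and the variance did not pass the test (limma, adjusted p = 0.730). Without sample 4 the span was 1.49-fold. As for Map2, the value in sample 4 cannot be told from background without detection calls. With log2(value + 16) in place of the floor, the Nefm range was 1.61 log2 units instead of 1.82. The part of the 3' to 5' ratio in the low value of sample 4 was not tested.

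Nefl, the light subunit on which the filament core is built, gave 515, 587, 479 and 527 units (527 ± 44.9 units, SD, n = 4). No sample stood out, and the span was 1.23-fold, with an SD of 0.570 times the trend (limma, adjusted p = 0.996). Nefl and Nefm are neighbouring protein-coding genes, with 1 gene between them in the RefSeq table that is not protein-coding. In sample 4 the log2 deviation was -1.62 for Nefm and 0.01 for Nefl. Nefh, the heavy subunit with a long phosphorylated tail, gave 483, 318.5, 409.5 and 453 units (416 ± 71.6 units, SD, n = 4). It was lowest in sample 2 rather than in sample 4, and spanned 1.52-fold with an SD of 1.18 times the trend (limma, adjusted p = 0.994).

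Tubb3, the beta-tubulin isotype of neurons, was measured by 2 probe sets whose suffix _f marks probes shared by related transcripts, so that other beta-tubulins may contribute to both. Tubb3 160462_f_at gave 4097, 4219, 3714 and 4198 units (4057 ± 235 units, SD, n = 4). Sample 3 was slightly low and the others nearly equal, and the span was 1.14-fold. Tubb3 161612_f_at gave 611, 805, 660.2 and 844 units (730.0 ± 112 units, SD, n = 4), with samples 1 and 3 below samples 2 and 4 and a span of 1.38-fold. The SDs were 0.592 and 1.10 times the trend, and neither probe set passed the test (limma, adjusted p = 0.996 and 0.994).

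Stmn2 binds tubulin dimers and promotes microtubule disassembly in the growth cone. After quantile normalization, 1 of its probe sets had the steadiest signal of the tested probe sets of these genes. Stmn2 95670_at gave 1327, 1226, 1265 and 1289.7 units (1277 ± 42.3 units, SD, n = 4). The samples lay within 1.08-fold of each other, and the SD was 0.259 times the trend (limma, adjusted p = 0.999). The rank depended on the scaling. With median scaling, the log2 range of Stmn2 95670_at was 0.24, against 0.22 for Tubb3 160462_f_at. Stmn2 95669_g_at gave 2226, 1939.5, 1805 and 1741 units (1928 ± 215 units, SD, n = 4), highest in sample 1 and lowest in sample 4, with a span of 1.28-fold and an SD of 0.923 times the trend (limma, adjusted p = 0.994). The low-signal probe set Stmn2 95668_at gave 82.95 units in sample 2, 37.2 in sample 3 and 31.8 in sample 4, and lay below the floor in sample 1. Its order was not that of the brighter probe sets, although Stmn2 95669_g_at was designed from the same expressed sequence.

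Gap43, a membrane-bound phosphoprotein of the growth cone and of presynaptic endings, gave 794, 742, 1141 and 860.2 units (884 ± 178 units, SD, n = 4). Sample 3 was high and the others lay close together. The span was 1.54-fold, and the SD was 1.38 times the trend (limma, adjusted p = 0.994). Leaving out sample 3 brought the log2 range of Gap43 from 0.62 to 0.21.

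**Figure D2:**
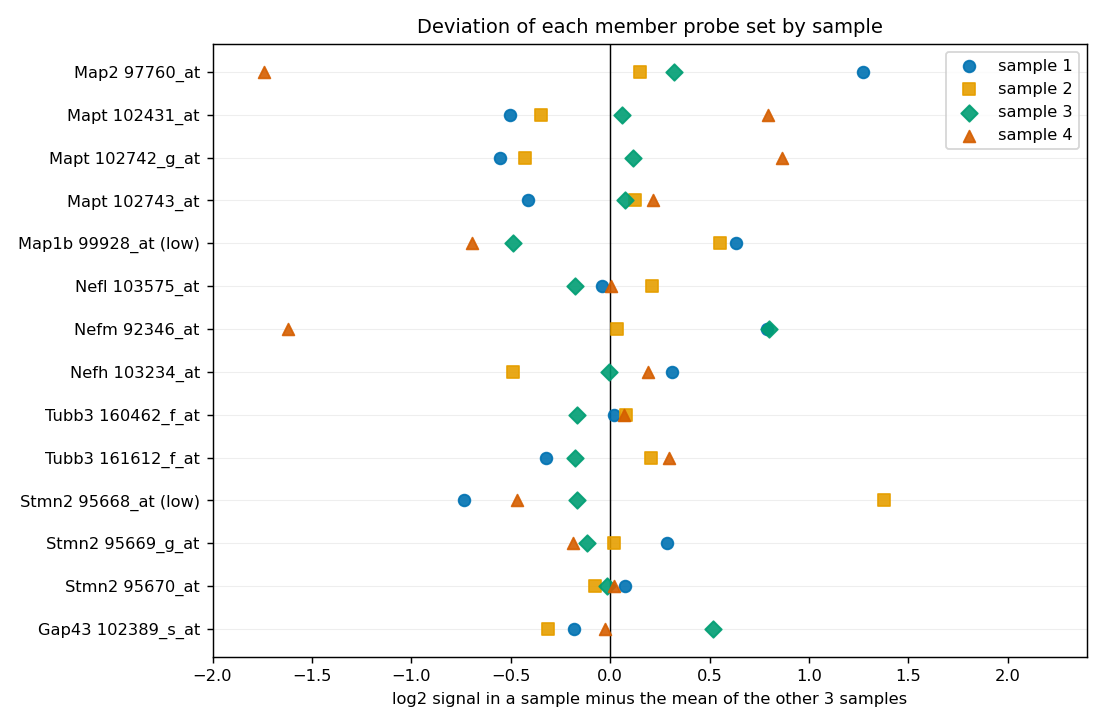
Log2 signal of each probe set in a sample less the mean of the remaining 3, with 1 symbol per sample; (low) marks the 2 probe sets that were not tested. In sample 4, Map2 and Nefm lie at -1.74 and -1.62, whereas the Mapt probe sets lie between 0.21 and 0.87.

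Over the 12 tested probe sets, 0 passed the variance test after adjustment over all probe sets, as did 0% of the 6211 tested (limma, smallest adjusted p = 0.316). At an unadjusted p under 0.05 there were 4 of 12 (Map2, Nefm and the Mapt pair from 1 mRNA sequence), against 5.86% of all tested probe sets. Without sample 4, with the remaining arrays normalized and filtered anew, this count was 0. The share over all probe sets is not given for that test on fewer arrays, so the drop cannot be set against the 5.86%. At least 2-fold was spanned by 3 of 12 (Map2, Nefm and Mapt 102742_g_at), against 14.4% of all. Without sample 4, with the normalization unchanged, this count was 0 of 12, against 7.15% of all. The median range was 0.54 log2 units over the 12 and 0.53 over all tested probe sets, and 6 of the 12 spanned less than 1.5-fold, as did 3491 of all 6211.

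The samples did not rank these genes in 1 order. Of the 12 probe sets, 4 were highest in sample 4 (31.2% of all tested) and 3 were lowest there (30.6% of all). In sample 1, 4 were highest (24.6% of all) and 4 were lowest (23.1% of all). All Mapt probe sets were highest in sample 4 and lowest in sample 1, so that Mapt counts repeatedly here. Of the 8 genes at their brightest probe sets, 1 was highest and 3 were lowest in sample 4. In sample 1, 3 of these genes were highest and 1 was lowest. With each of the 8 genes taken at its brightest probe set, the median log2 deviation was 0.15, 0.03, 0.03 and -0.01 in samples 1 to 4, against 0.01, 0.01, 0.01 and 0.02 over all tested probe sets. In sample 4, the 8 genes divided into 4 above and 4 below the mean of the others, and their deviations ran from -1.74 to 0.79. Small deviations depended on the scaling: the sign changed between scalings for Gap43 in sample 4, for Tubb3 160462_f_at in samples 1 and 2, and for Mapt 102743_at and Stmn2 95669_g_at in sample 2.

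**Figure D3:**
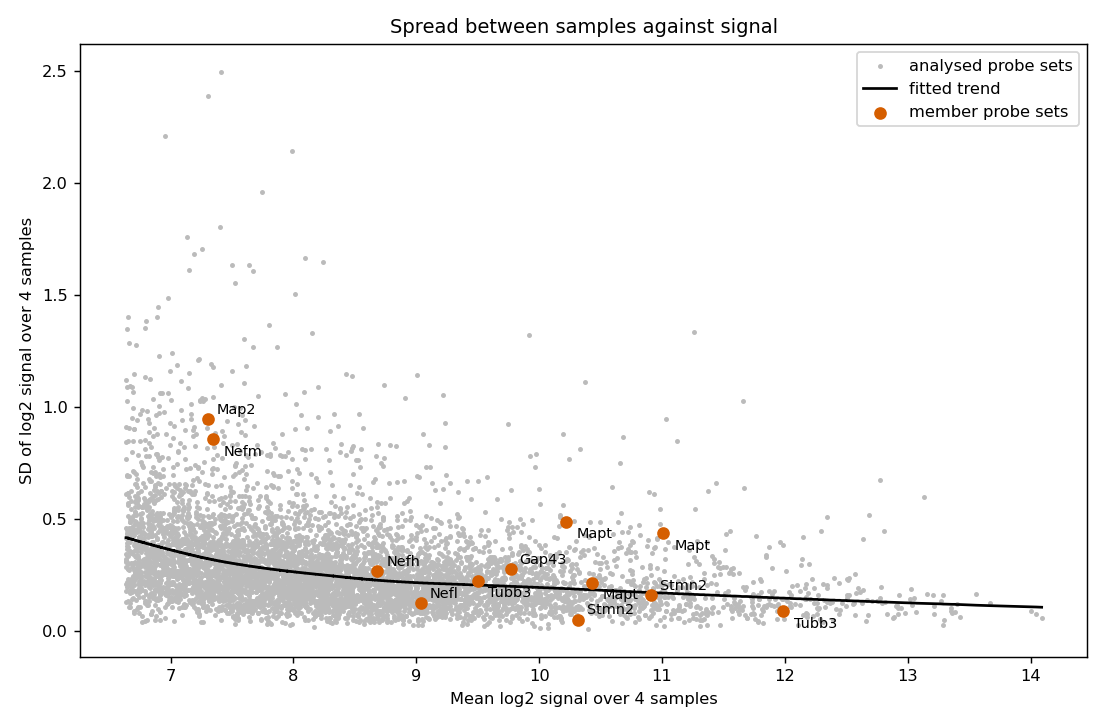
SD of the log2 signal over the 4 samples against its mean, for all 6211 tested probe sets (grey), the 12 probe sets of the 9 genes (orange, named) and the fitted trend (line). Map2, Nefm and 2 Mapt probe sets lie at 2.58 to 2.94 times the trend, and Stmn2 95670_at lies lowest, at 0.259 times.

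Genes of the wider cytoskeleton were examined in the same way. Among 22 tested microtubule-associated proteins and their regulators, 0 passed the variance test and 3 spanned at least 2-fold (Map1lc3a, Mapre1 and Cdk5r1), a share near the 14.4% of all tested probe sets. The median range was 0.41 log2 units. Map4, a microtubule-associated protein of many cell types, gave 743 to 786 units. Map6, which stabilises microtubules against cold, gave 459, 472, 291 and 489 units in samples 1 to 4, with sample 3 low. Cdk5r1, the activator of the tau kinase Cdk5, gave 322, 322, 165 and 105 units, a 3.07-fold span, with samples 3 and 4 low.

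Tubulins were also examined. Of 9 tested genes besides Tubb3, 0 passed the variance test and 0 spanned 2-fold, against 14.4% of all tested probe sets. With so few genes, that count is near the share of all. Of probe sets with a mean above the 75th percentile, 6.60% spanned 2-fold. The median range was 0.28 log2 units, which was not compared with that of equally bright probe sets. The suffix _f of the Tuba1c probe set marks shared probes, as for Tubb3. Tuba1a gave 7293 to 8374 units and Tuba1c 10552 to 11606 units. Tubb4a had the widest range of the list, 1.36-fold, with 5169 units in sample 1, 4419.5 in sample 2, 3841 in sample 3 and 5215 in sample 4.

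Among 6 tested intermediate filament and lamin genes, 0 passed the variance test and 2 spanned at least 2-fold (Nes and Gfap), against 14.4% of all tested probe sets. Their median range was 0.80 log2 units, against 0.53 over all tested probe sets. Ina, the neuronal filament protein alpha-internexin that assembles with the neurofilament subunits, gave 1247, 1357, 1954 and 1552 units. It was highest in sample 3, and unlike Nefm it was not low in sample 4. Nes, the filament of neural stem cells, gave 98.6, 204, 58.7 and 205 units.

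Of 28 tested growth cone and axonal genes, 0 passed the variance test and 3 spanned at least 2-fold (Cap1, Pfn1 and Kif5c), against 14.4% of all tested probe sets. The median range was 0.40 log2 units. Basp1, a membrane protein related in function to Gap43, gave 8044, 9741, 9853 and 10292 units, lowest in sample 1. Marcks, which binds actin and calmodulin, was lowest in sample 4 (623, 595, 635 and 442 units). Kif5c, a kinesin heavy chain of neurons, gave 225 units in sample 1, 232 in sample 2 and 141 in sample 3. Its signal in sample 4 was under the floor, which makes its range at least 8.39-fold. Kif5c thus shared its lowest sample with Map2 and Nefm, but also with 30.6% of all tested probe sets. Of the 28 genes, 9 were lowest and 11 were highest in sample 4.

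General neuronal genes from outside the cytoskeleton were also examined. Over 14 tested genes, the median log2 deviation was 0.12, -0.03, 0.08 and -0.21 in samples 1 to 4, and 9 were lowest in sample 4, against 30.6% of all tested probe sets. The astrocyte median was also -0.21 in that sample, while the oligodendrocyte median was 0.34. The 3' to 5' control ratios were highest there, and their part in these values was not tested. The summed signal of the 14 genes was 52246, 46749, 51032 and 44795 units. Snap25, which takes part in synaptic vesicle fusion, gave 7326 units in sample 4 and 8169.7 to 9251 in the others. The vesicle proteins Syt1 and Rab3a had the widest ranges, 3.37-fold and 4.12-fold. Syt1 gave 2040, 1160, 718 and 605 units in samples 1 to 4. Like Map2, it was highest in sample 1 and lowest in sample 4. Rab3a was lowest in sample 1, at 87.5 units.

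Genes of other cell types are given beside these values. The summed signal of 10 measured oligodendrocyte genes was 10163, 13317, 9787 and 13320.0 units in samples 1 to 4, with median log2 deviations of -0.15, 0.32, -0.38 and 0.34 over 8 tested genes. The summed signal of 11 astrocyte genes ranged from 27317 to 30771 units, with median log2 deviations of -0.12, 0.05, 0.19 and -0.21 in samples 1 to 4, and that of 11 microglial genes from 3679 to 4285 units. In these lists 0 values were deposited as 0. The oligodendrocyte sum was high in samples 2 and 4. Mag, the gene of that list that spanned 2-fold, went against it in sample 4 (528, 818, 425 and 403 units), and 6 of the 8 tested genes were above the mean of the others there. Whether cell composition had a part in the values of sample 4 was not tested.

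**Figure D4:**
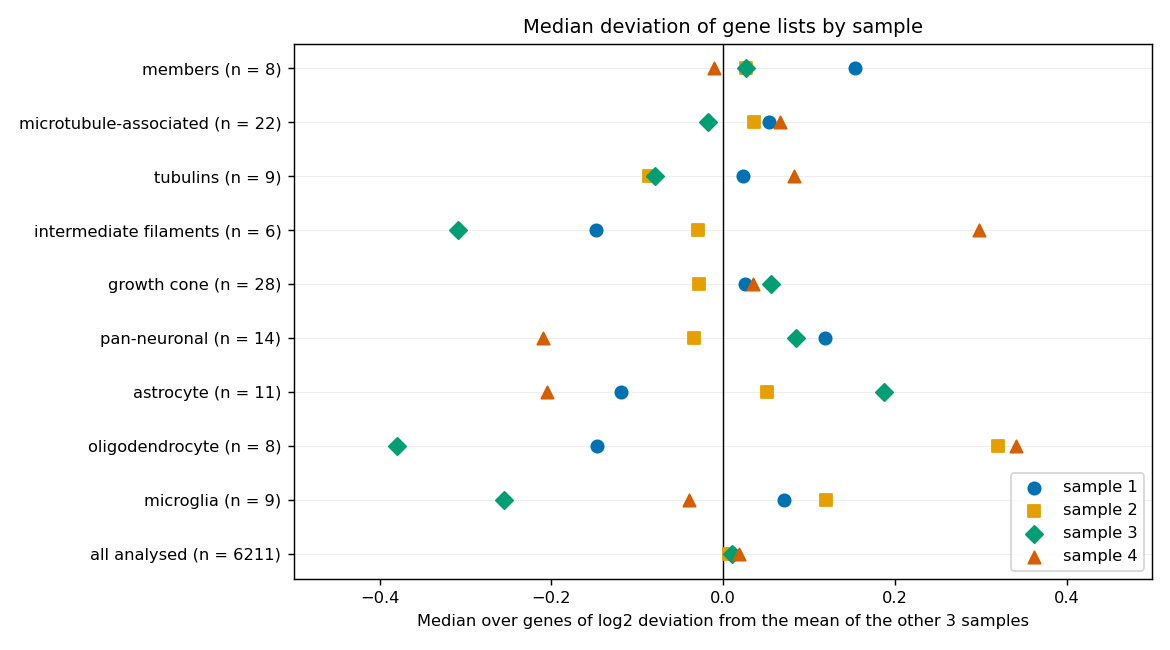
Median over genes of the log2 deviation from the mean of the other 3 samples, for the 9 genes (8 tested), the related gene lists, lists of brain cell types and all tested probe sets. The 9 genes lie between -0.01 and 0.15 in all 4 samples, while the oligodendrocyte list runs from -0.38 to 0.34.

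The genes whose pattern over the 4 samples was most like that of Map2, by the root mean square difference of log2 deviations from each probe set's own mean, were Tspan5, Ssr3 and Gosr2, at 0.15, 0.15 and 0.16 log2 units. Tspan5, a tetraspanin, gave 339, 245, 263 and 81.1 units, Ssr3 gave 389, 231, 225 and 102 units, and Gosr2, a SNARE protein of the Golgi, gave 236.5, 163, 131 and 52.1 units. For Stmn2 95670_at, the steadiest probe set after quantile normalization, the closest were Zdhhc14, Msrb1 and Cystm1, at 0.0074, 0.011 and 0.013 log2 units. The likeness rests on 4 samples, was searched over 6211 probe sets and is given as a description without a test.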

How the data were processed

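The deposited values are linear array intensities of 12422 probe sets and 66 controls on each of 4 arrays; the software that made them is not given in the sources used here. Their mean after leaving out the lowest and highest 2% was 250.0 units on each array, so the authors had scaled the arrays before deposit. After removal of controls, quantile normalization was done in R 4.3.3 (limma 3.58.1), values below the 25th percentile were set to it, and log2 was taken. Probe sets above the median (50th percentile) of mean log2 were tested for excess variance against a robust intensity trend (one-sided F test, 3 residual and 5.20 prior degrees of freedom, Benjamini-Hochberg at 0.05 over all tested probe sets). Symbols of 10817 of 10833 single-symbol probe sets were taken from RefSeq GRCm38.p6 by Entrez identifier. In lists, a gene is its tested probe set with the highest mean. All 9 genes were named, and from each related cytoskeletal or neuronal list the first 2 tested genes and the gene with the largest range; others that spanned 2-fold, Neurod2 and Camk2a were named after values were seen. The genes and lists were chosen with earlier results of these data known. Alternatives covered normalization, floor, signal limit, variance model, probe set choice and leaving out each sample.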

Additional observations from a re-analysis of the deposited data

Results flagged for a closer look

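The gap between the lowest sample and the next was large for its range in Map6, the cold-stable microtubule protein: sample 3 gave 291 units against 459 to 489 units in the others, and the gap made up 0.879 of the whole log2 range, above Dixon's critical value for 4 samples. This was 1 of 44 probe sets examined in this way, and chance flags about 1 in 20. Of the 14 probe sets of the 9 genes, 0 were above that value.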

How the results depend on the processing

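The count of probe sets of the 9 genes past the adjusted variance test (limma) stayed at 0 under all 12 alternatives. The smallest adjusted p among them ran from 0.203 (no signal limit) to 0.981 (without sample 4). From 0 (without sample 4) to 4 had an unadjusted p under 0.05, and the share over all probe sets is not given for these alternatives. The count spanning at least 2-fold was 3 of 12 with all samples, against 14.4% of all tested probe sets. With 1 sample left out and the arrays normalized anew, it ranged from 0 of 12 (without sample 4, 6.65% of all) to 3 of 12. The latter was without sample 2 (11.0% of all) or sample 3 (10.3%). It was 1 of 10 with the signal limit at the 75th percentile, which leaves out Map2 and Nefm, against 6.60% of all. It was 4 of 12 with median scaling, which adds Mapt 102431_at, against 15.2% of all. With no signal limit, which adds the low-signal Stmn2 95668_at, it was 4 of 14, against 22.6% of all. Median scaling shifted the median of all tested probe sets in sample 4 to 0.11 log2 units; the median of the 9 genes there was also 0.11. The other medians of the 9 genes lay near 0 and their signs are not settled: that of sample 1 went from 0.15 to -0.01 with the limit at the 75th percentile, and that of sample 2 from 0.03 to -0.23 without sample 4. Of 140 ranges of single probe sets under alternatives, 12 moved by more than the SD between samples, 11 of them when 1 sample was left out and the other, Stmn2 95670_at, with median scaling. The 140 include changes of the signal limit, which cannot alter the range of a single probe set. The share that moved is therefore no measure of stability. No paired analysis was possible because the labels give 1 group and no shared replicate numbers. Without detection calls, low signals such as those of Map1b cannot be told from background.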
